A study of Mus musculus with 11 samples.

Results

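The replication-dependent histone genes were described by subtype in mouse mammary tumors that carried or lacked Pcbp1. Members were taken by name: every gene whose symbol began with Hist1h, Hist2h, Hist3h or Hist4h, 68 of 26283 genes in the deposited tables. The name also gave the subtype, with 6 H1, 18 H2A, 19 H2B, 12 H3 and 13 H4 genes, and the cluster, with 54 genes in Hist1, 10 in Hist2, 3 in Hist3 and 1 in Hist4. Of the 68 members, 66 were annotated as protein-coding and 2 as pseudogenes (Hist1h2aj and Hist3h2bb-ps).

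Replication-dependent histone genes supply the bulk of the histone protein that packages newly made DNA, and their transcripts accumulate in S phase and are degraded when DNA synthesis stops. Their transcription depends on NPAT, a coactivator that cyclin E and CDK2 phosphorylate at histone gene clusters. Most of their mRNAs end in a conserved stem-loop bound by the stem-loop binding protein SLBP in place of a poly(A) tail, although some of these genes also give polyadenylated transcripts, for example in differentiated or tumor cells.

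Bulk RNA-seq was done on 11 mammary tumors from C57BL/6 females at 18 weeks of age, 6 PyMT Pcbp1–/– (KO) and 5 PyMT Pcbp1+/+ (WT). All animals carried the MMTV-PyMT oncogene and MMTV-Cre, and the groups differed in Pcbp1, floxed on both alleles in KO and wild-type on both in WT. The MMTV promoter drives Cre in mammary epithelial cells, so the other cells of a KO tumor would keep Pcbp1. Its level by cell type was not measured here. Tumors were flash frozen, RNA was extracted with Trizol, and libraries were stranded and selected for poly(A), with the same batch date on every label. Which tumor came from which mouse was not given in the sources used here, so p-values measure the spread between these tumors.

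Estimated counts summed to between 11239931 and 14092192 per KO tumor and between 10543189 and 11411776 per WT tumor. The mean total was 12831222 ± 1127639 in KO (SD, n = 6) and 11014923 ± 324004 in WT (SD, n = 5), a difference with an exact two-sided permutation p of 0.00866 (Benjamini-Hochberg p = 0.0173 over 2 comparisons). KO tumors thus had more estimated counts on average, although the ranges overlapped, and numbers of reads sequenced were not compared. Levels are given below as counts per 1000000 (CPM) from the deposited table. Members had at least 100 counts in every tumor in 60 of 68 cases.

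The targeted gene was checked first. Pcbp1, which encodes a poly(C)-binding protein, lay between 15.4 and 33.6 CPM in the 6 KO tumors with a median of 20.9 CPM. In WT it was at 268.1, 270.8, 225.2, 219.5 and 259.0 CPM. Every KO tumor was below every WT tumor, in accord with the labels, and Pcbp1 fell by 3.43 on the log2 scale (SE 0.19, edgeR adjusted p = 4.7e-06).

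The tumors of 1 genotype differed among themselves in histone level. Summed over all 68 members, the histone CPM was 3501, 4519, 6591, 5712, 5976 and 5350 in KO replicates 1 to 6. It was 3144, 5264, 3627, 3846 and 3857 in WT replicates 1 to 5. WT replicate 2 stood above the other 4 WT tumors and above KO replicates 1 and 2, and KO replicate 1 stood below WT replicates 2, 3, 4 and 5, so the groups overlapped. WT replicate 2 exceeded the mean of the other WT tumors for 62 of 68 members, by a median ratio of 1.46, and KO replicate 1 lay below the mean of the other KO tumors for all 68 members, with a median ratio of 0.606. Without KO replicate 1, and likewise without WT replicate 2, the median log2 fold change over the members was 0.57, against 0.46 with all tumors, and calls without each tumor are given below.

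All 68 histone genes passed the filter on low counts and all 68 had a positive log2 fold change (KO minus WT), as did 9613 of all 19232 genes tested. Their median log2 fold change was 0.46, a fold of 1.38, against -0.00012 over all genes tested. The lowest was 0.12 for Hist1h4m and the highest 1.59 for Hist1h1t. The middle 50% of all genes tested ran from -0.20 to 0.18.

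Only 2 of the 68 members passed an edgeR adjusted p of 0.05, Hist4h4 and Hist1h2af, both higher in KO, or 2.94% of members against 0.608% of all genes tested. No member passed in the other direction, where 1.66% of all genes did. At an unadjusted edgeR p under 0.05, 37 members were higher, 54.4% of them against 8.19% of all genes, and 0 were lower against 10.5%. The same 2 genes were the only members whose deposited CPM in every KO tumor lay above every WT tumor, as held for 1.27% of all genes tested. Positive differences thus ran through the whole family, and most of them did not pass the adjusted threshold in edgeR. In a bulk tumor, a change in the share of cells that are making histone mRNA and a change in the histone mRNA of each such cell cannot be told apart.

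By subtype, the median log2 fold change was 0.44 for H1, 0.54 for H2A, 0.46 for H2B, 0.47 for H3 and 0.38 for H4. Differences between these medians were not tested. Subtype sums are less open to reads shared between near-identical copies than single genes are. Summed H4 CPM was 1327 ± 255 in KO (SD, n = 6) and 1015 ± 233 in WT (SD, n = 5), the highest of the 5 sums. H3 summed to 1123 ± 260 CPM in KO and 821 ± 199 in WT, and H1 to 969 ± 206 and 748 ± 121 CPM. H2A summed to 947 ± 212 CPM in KO and 701 ± 119 in WT, and H2B to 908 ± 185 and 663 ± 127 CPM. The ratio of KO to WT means was 1.30 for H1, 1.35 for H2A, 1.37 for H2B, 1.37 for H3 and 1.31 for H4, and in each subtype WT replicate 2 lay among the KO tumors.

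**Figure D1:**
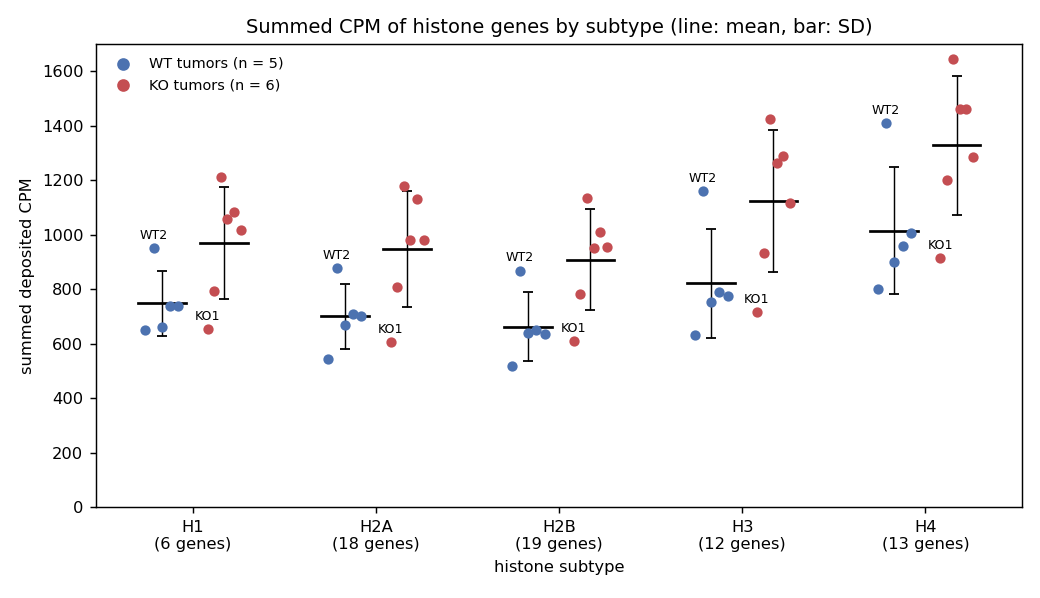
Summed deposited CPM of the histone genes of each subtype in each tumor, with the mean and SD of the 5 WT (blue) and 6 KO (red) tumors. In each of the 5 subtypes WT replicate 2 (WT2) was the highest WT tumor and KO replicate 1 (KO1) the lowest KO tumor, and the groups overlapped.

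The proportions between subtypes varied far less than the total. H4 genes took between 24.0% and 26.8% of histone CPM in the 11 tumors, and H3 genes between 20.0% and 22.1%. H1 genes took between 17.6% and 20.6%, H2A genes between 16.7% and 18.9%, and H2B genes between 16.5% and 17.8%. The total varied from 3144 to 6591 CPM over the same tumors. In each subtype the ranges of the KO and WT proportions overlapped.

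Histones H3 and H4 form the tetramer at the center of the nucleosome. Hist4h4, the single Hist4 gene, had the clearest difference of all members. It is the only member on chromosome 6 (GRCm38, chr6:136801553-136804415, minus strand, ENSMUSG00000096010.2) and encodes an H4 protein. Pcbp1, the targeted gene, is on the same chromosome (chr6:86524492-86526321), and any part of that in the Hist4h4 difference was not tested. The CPM of Hist4h4 was 43.0, 53.2, 105.1, 89.9, 93.1 and 97.3 in KO replicates 1 to 6. In WT it was 22.7, 34.6, 26.7, 31.3 and 33.8 CPM. KO replicates 1 and 2 were the lowest of the KO tumors, yet no KO tumor fell into the WT range. The mean was 80.3 ± 25.6 CPM in KO (SD, n = 6) and 29.8 ± 5.04 in WT (SD, n = 5), and Hist4h4 rose by 1.43 on the log2 scale (SE 0.24, edgeR adjusted p = 0.0108).

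The Hist4h4 difference was also visible within the H4 genes of each tumor. Hist4h4 supplied between 4.43% and 7.57% of H4 CPM in KO, with a median of 6.26%. In WT the share was 2.83%, 2.46%, 2.96%, 3.27% and 3.36%. The groups did not overlap in this share, and WT replicate 2, the WT tumor with the most H4 mRNA, had the lowest share of all. Without Hist4h4, the median log2 fold change of the other 12 H4 genes was 0.35.

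The remaining H4 genes held the other end of the range. Hist1h4m, in the Hist1 cluster (chr13:21811746-21812147, plus strand), lay between 80.3 and 136.0 CPM in KO with a median of 95.7 CPM. Its WT values were 68.6, 153.6, 83.8, 82.6 and 85.6 CPM, and the highest of all 11 was WT replicate 2, so the groups overlapped fully. Its log2 fold change of 0.12 (SE 0.21, edgeR adjusted p = 0.787) was the smallest of the family in this fit, followed by 0.15 for Hist1h4n. Without WT replicate 2 it was 0.36, over the omission of each tumor it ran from 0.011 to 0.36, and in limma-voom with sample quality weights it was 0.42 (adjusted p = 0.116). Hist1h4h had the highest level of all 68 genes per kilobase of gene span, 416 CPM per kb over all tumors, and Hist1h4f was next at 260. Hist1h4h was at 159.6, 212.5, 152.5, 167.1 and 166.8 CPM in WT and between 158.1 and 250.7 CPM in KO, with a log2 fold change of 0.33 (SE 0.13, edgeR adjusted p = 0.200). Hist1h4f had a log2 fold change of 0.38 (edgeR adjusted p = 0.236).

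None of the 12 H3 genes passed the adjusted threshold in edgeR, 7 of them were higher at an unadjusted p under 0.05 (8.19% of all genes), and their log2 fold changes had the narrowest range of the 5 subtypes. They ran from 0.30 for Hist1h3e to 0.62 for Hist1h3d, with edgeR adjusted p of 0.414 and 0.163. Hist1h3d lay between 53.9 and 107.0 CPM in KO with a median of 91.9 CPM. In WT it was at 41.6, 86.0, 52.0, 50.2 and 49.6 CPM, where replicate 2 alone lay within the KO range. Per kilobase, Hist1h3c (202 CPM per kb) and Hist1h3i (155 CPM per kb) had the highest H3 levels, with log2 fold changes of 0.48 and 0.44 (edgeR adjusted p = 0.197 and 0.291). By limma-voom with sample quality weights, described below with the other tests, 9 of the 12 H3 genes passed (5.03% of all genes), and by DESeq2 none did (2.63% of all genes).

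H2A and H2B form the dimers that flank the tetramer. Hist1h2af, an H2A gene of the Hist1 cluster (chr13:23533906-23534304, plus strand, ENSMUSG00000061991.2), was the other gene that passed the test. Its CPM was 30.2, 37.2, 58.0, 44.2, 48.3 and 50.5 in KO replicates 1 to 6. The WT values were 23.6, 25.4, 26.0, 29.2 and 25.0 CPM. The WT tumors were close together, replicate 2 did not stand out among them, and KO replicate 1 was only just above the highest of them. The mean was 44.7 ± 9.89 CPM in KO (SD, n = 6) and 25.8 ± 2.07 in WT (SD, n = 5), and Hist1h2af rose by 0.79 on the log2 scale (SE 0.16, edgeR adjusted p = 0.0243). It passed in 17 of 23 other settings, with an adjusted p from 0.0002 to 0.091. As a share of H2A CPM it was between 4.27% and 5.16% in KO and between 2.89% and 4.32% in WT, so on that scale the groups overlapped.

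The smallest H2A differences were in the Hist2 cluster. Hist2h2aa1 and Hist2h2aa2, which lie next to each other on chromosome 3, had the highest H2A levels per kilobase, 218 and 200 CPM per kb. Their log2 fold changes were 0.20 and 0.22 (edgeR adjusted p = 0.510 and 0.455). Hist2h2aa1 lay between 79.5 and 148.4 CPM in KO and at 90.4, 123.1, 100.2, 111.1 and 108.1 CPM in WT, a range inside that of KO. Counts of both genes were not whole numbers in any of the 11 tumors and each overlaps an annotated noncoding gene, so each is uncertain as a single gene. Of the 18 H2A genes, 13 were higher at an unadjusted p under 0.05, against 8.19% of all genes.

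Among H2B genes, Hist1h2bf had the largest difference. It lay between 20.6 and 41.7 CPM in KO with a median of 32.1 CPM. In WT it was at 15.1, 11.5, 20.9, 21.0 and 20.6 CPM. WT replicate 2 had the lowest value here, unlike its value for most of the family, and KO replicate 1 fell within the WT range. The log2 fold change of 0.82 (SE 0.21) missed the threshold in edgeR (adjusted p = 0.0637). It passed in 4 of 23 other settings, among them DESeq2 (adjusted p = 0.0068) and edgeR without KO replicate 1 (adjusted p = 0.0381), within a range of adjusted p from 0.0068 to 0.141 over all 23.

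Other H2B genes were closer to the family median. Hist2h2bb, with the highest H2B level per kilobase (193 CPM per kb), lay between 45.8 and 106.0 CPM in KO with a median of 92.5 CPM. Its WT values were 38.5, 74.3, 52.5, 58.6 and 58.9 CPM, and 5 of 6 KO tumors were above all of them, KO replicate 1 being the exception. Its log2 fold change was 0.62 (SE 0.22, edgeR adjusted p = 0.149). Without KO replicate 1 it was 0.76 and passed (edgeR adjusted p = 0.0384), as it did in limma-voom with sample quality weights, within 0.0245 to 0.310 over 23 settings. Its counts were not whole in any of the 11 tumors and it overlaps a noncoding gene on the same strand, so its level and rank are uncertain. Hist1h2bb, second in level at 138 CPM per kb, had 0.53 (edgeR adjusted p = 0.175), and the smallest H2B value was 0.21 for Hist2h2be (edgeR adjusted p = 0.574). Of the 19 H2B genes, 8 were higher at an unadjusted p under 0.05, against 8.19% of all genes.

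H1 histones bind the linker DNA between nucleosomes. Hist1h1c had the highest H1 level per kilobase (190 CPM per kb) and lay between 248.3 and 383.3 CPM in KO with a median of 336.2 CPM. In WT it was at 232.3, 320.1, 241.9, 250.7 and 254.9 CPM. Apart from replicate 2 the WT tumors were close together, and KO replicates 1 and 2 were below WT replicate 2. The log2 fold change was 0.33 for Hist1h1c (edgeR adjusted p = 0.238), 0.53 for Hist1h1a (edgeR adjusted p = 0.304) and 0.32 for Hist1h1e (edgeR adjusted p = 0.293). Hist1h1e overlaps the annotated span of Hist1h2be on the same strand, and the counts of both were not whole, so they are uncertain.

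Hist1h1t and Hist1h2ba are members known for expression in testis, and both were near the limit of detection. Hist1h1t lay between 0.940 and 1.80 CPM in KO with a median of 1.57 CPM. In WT it was at 0.274, 1.42, 0.0876, 0.364 and 0.268 CPM, where a value of 3 counts corresponds to between 0.263 and 0.285 CPM. WT replicate 2 was alone among the WT tumors in the KO range, and the other 4 were near that floor or below it. The log2 fold change of 1.59 (SE 0.48, edgeR adjusted p = 0.109) was the largest of the family in this fit, and without WT replicate 2 it was 2.51 (edgeR adjusted p = 0.00691, within 0.00373 to 0.265 over the 22 settings that gave it an adjusted p). With limma on log2(CPM + 1) it was 0.77, below the 1.34 of Hist4h4, and without KO replicate 6 and WT replicate 3 it was 1.30, below 1.35 for Hist4h4, so its rank depends on values near the floor and on the tumors used. Hist1h2ba was between 1.02 and 1.70 CPM in KO and between 0.664 and 1.40 CPM in WT, with a log2 fold change of 0.56 (edgeR adjusted p = 0.267). Such floors cover counting error only.

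**Figure D2:**
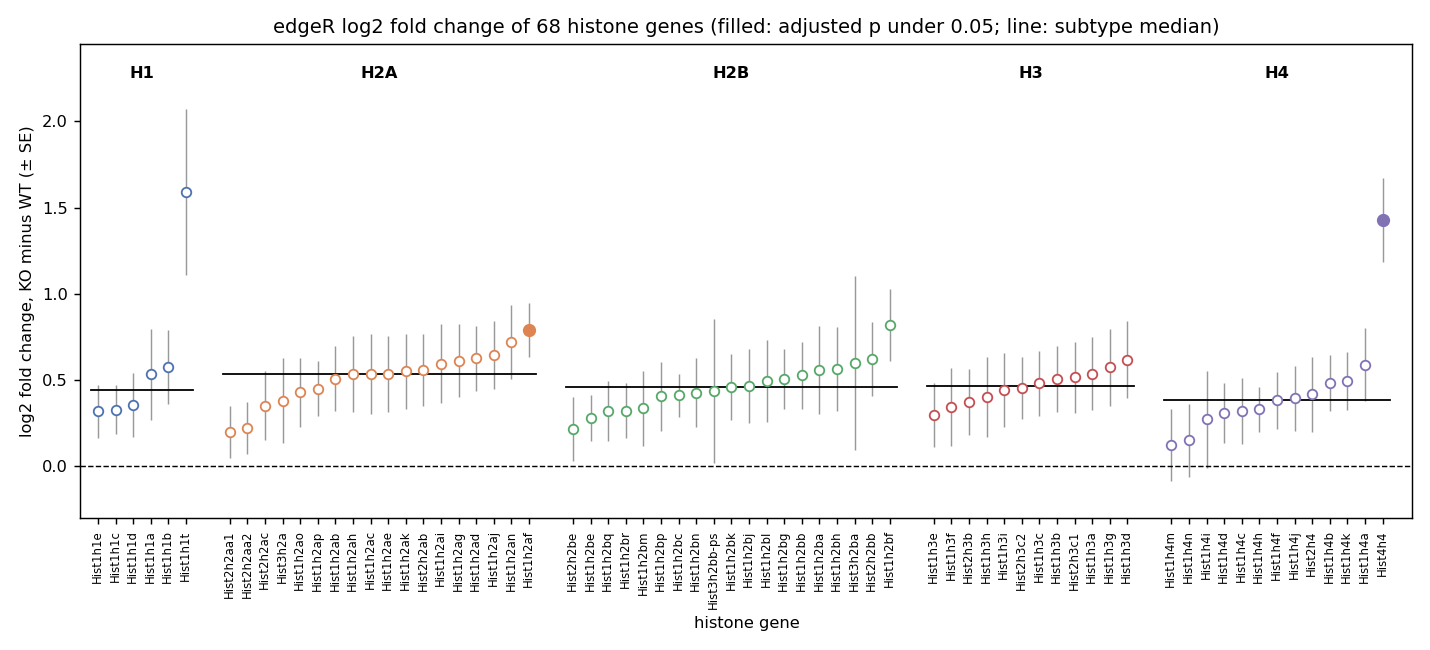
edgeR log2 fold change (KO minus WT, ± SE) of the 68 histone genes, ordered within each subtype, with the subtype median as a line and filled points for an adjusted p under 0.05. All 68 points lie above 0, from 0.12 (Hist1h4m) to 1.59 (Hist1h1t), and 2 are filled, Hist1h2af and Hist4h4.

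**Figure D3:**
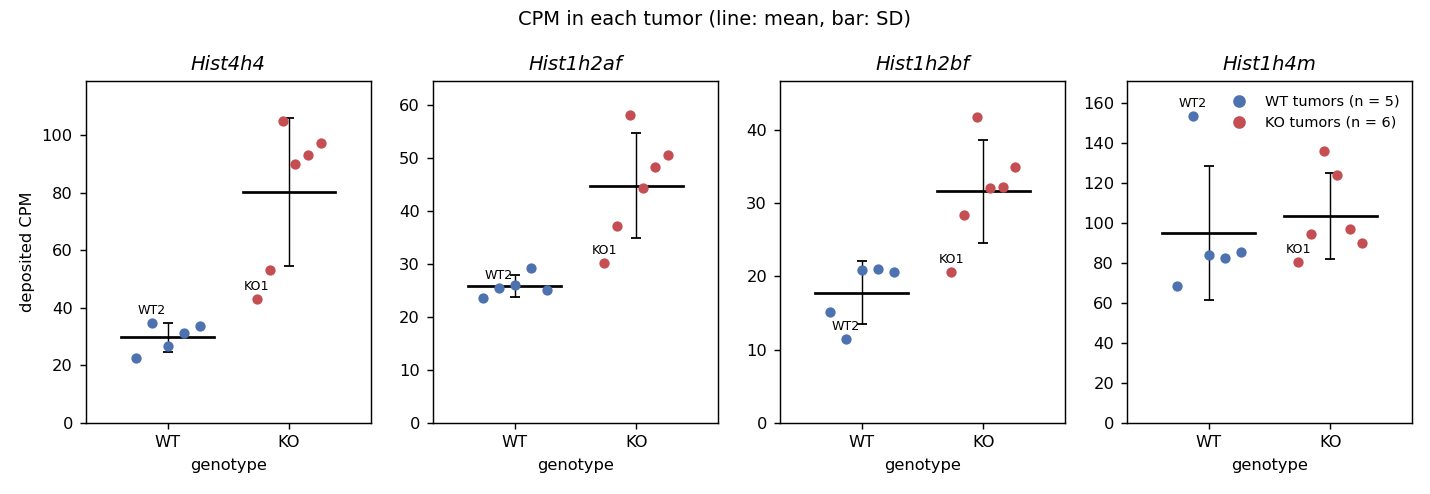
Deposited CPM of Hist4h4, Hist1h2af, Hist1h2bf and Hist1h4m in each of the 5 WT (blue) and 6 KO (red) tumors, with mean and SD. The groups are apart for Hist4h4 and Hist1h2af and overlap for Hist1h2bf and Hist1h4m, and WT replicate 2 (WT2) is the highest tumor for Hist1h4m and the lowest for Hist1h2bf.

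The count of members called depended on the test and on single tumors. DESeq2 called 7 of the 67 members to which it gave an adjusted p (10.4%, against 2.63% of all genes), adding Hist1h2ad, Hist1h2aj, Hist1h2an, Hist1h2bc and Hist1h2bf. By limma-voom with sample quality weights, 47 of 68 members were called (69.1%, against 5.03% of all genes). Without the weights, limma-voom called 2 members, where 86 of 19232 genes were called higher. Those weights were lowest for WT replicate 2, at 0.348, and highest for KO replicate 4, at 2.28. edgeR called 5 members without KO replicate 1, where 97 of 19011 genes were called higher, and 5 without WT replicate 2, where 187 of 19492 were. It called 1, Hist4h4, without KO replicate 3, 4 or 5 or without WT replicate 1 or 4. Over all genes, calls higher in KO were 42, 46, 48, 54 and 42 in those 5 fits, against 117 with all tumors. Hist1h2af had an edgeR adjusted p between 0.0528 and 0.0605 in those 5 fits, within a range from 0.0002 to 0.091 over its 23 other settings.

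The members lie in 4 genomic clusters. The median log2 fold change was 0.48 over the 54 Hist1 genes on chromosome 13 and 0.39 over the 10 Hist2 genes on chromosome 3. The 3 Hist3 genes on chromosome 11 had log2 fold changes of 0.60 (Hist3h2ba), 0.44 (Hist3h2bb-ps) and 0.38 (Hist3h2a), with edgeR adjusted p of 0.560, 0.612 and 0.437. With all tumors, none of the 10 Hist2 genes passed the adjusted threshold in edgeR or DESeq2, and 5 passed in limma-voom with sample quality weights (5.03% of all genes). At an unadjusted edgeR p under 0.05, 4 were higher (8.19% of all genes), and their log2 fold changes ran from 0.20 (Hist2h2aa1) to 0.62 (Hist2h2bb). Within Hist1, gaps of more than 100000 bases separate 4 stretches of genes. The median was 0.43 over the 19 genes at chr13:21715763-21837530, 0.46 over the 5 genes at chr13:22035164-22043676 and 0.51 over the 29 genes at chr13:23531050-23764406, and the last stretch was Hist1h2ba alone. No stretch of Hist1 differed in sign from the rest.

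**Figure D4:**
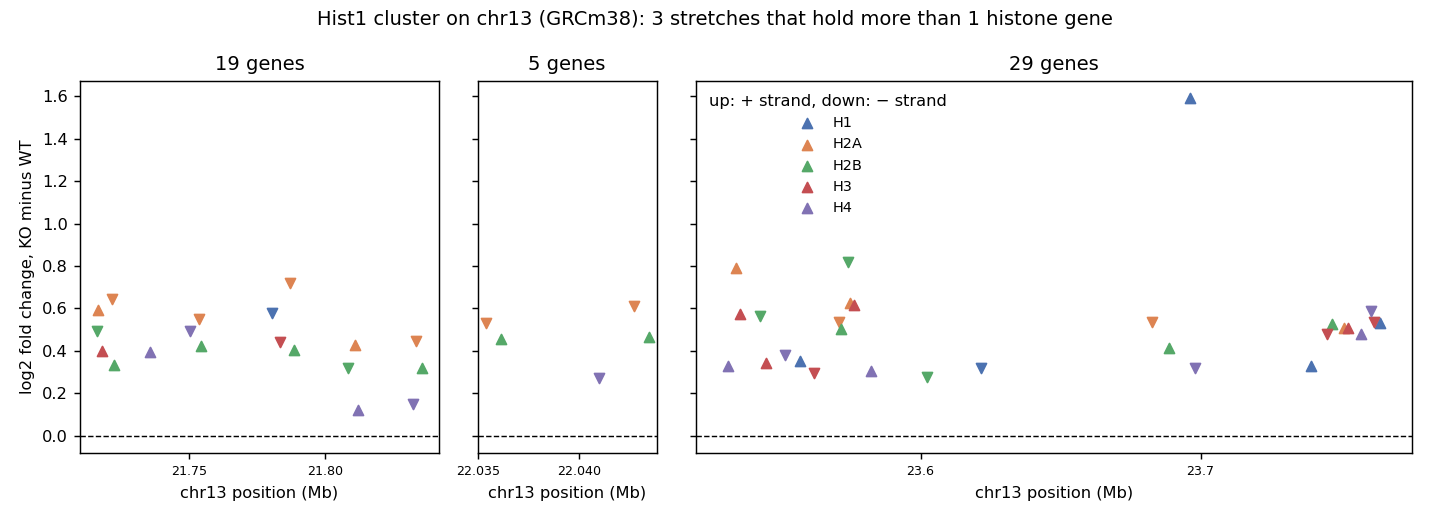
Position on chromosome 13 (GRCm38, Mb) and edgeR log2 fold change (KO minus WT) of the Hist1 genes in the 3 stretches with more than 1 gene, colored by subtype, with upward triangles for the plus strand and downward triangles for the minus strand. Median log2 fold changes of the 3 stretches were 0.43, 0.46 and 0.51.

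Many H2A and H2B genes are arranged head to head and share the DNA between their starts. In 13 H2A and H2B pairs the annotated 5′ ends were between 173 and 302 bases apart on opposite strands. The 2 genes of a pair had log2 fold changes that differed by 0.12 at the median, from 0.03 for Hist1h2ae and Hist1h2bg to 0.31 for Hist1h2an and Hist1h2bp. Hist1h2bf pairs with Hist1h2ad across 185 bases, and their log2 fold changes were 0.82 and 0.63. Hist1h2af has no such partner.

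The genes around Hist4h4 were read in the same fit. Its nearest neighbor is H2afj, which encodes the variant H2A.J on the opposite strand, with 3829 bases between the 5′ ends. H2afj was at 74.4 ± 6.51 CPM in KO (SD, n = 6) and 69.6 ± 8.55 in WT (SD, n = 5), with a log2 fold change of 0.10 (edgeR adjusted p = 0.597). Of the 5 other genes tested within 100000 bases of Hist4h4, none passed the adjusted threshold in edgeR, and none was under an unadjusted p of 0.05. All 5 log2 fold changes were positive, at a median of 0.11, and they ran from 0.08 to 0.73, the highest being Mgp (edgeR adjusted p = 0.339), an extracellular matrix protein gene.

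Promoter windows in RefSeq (GRCm38.p6, 250 bases before to 50 after the start) were matched for 59 of 68 members by symbol or synonym and position. Each window was searched on both strands for the CCAAT box, for TATAAA, for the octamer ATTTGCAT known from H2B promoters and for AAACACA known from H1 promoters. CCAAT was in all 47 windows of H1, H2A, H2B and H3 genes but in only 3 of 12 H4 windows, and in 37.4% of 32851 RefSeq promoter windows of the same length. TATAAA was in 33 of 59 histone windows against 13.6% of all windows. ATTTGCAT was in 6 of 15 H2A and 6 of 16 H2B windows, in none of the H1, H3 and H4 windows, and in 1.74% of all. AAACACA was in 5 of 6 H1 windows, 1 of 15 H2A and 2 of 16 H2B windows, and in 7.18% of all. The windows of head-to-head pairs overlap, so 1 match can count for both genes, and a match is a description of letters and not of a bound site.

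The median log2 fold change was 0.50 over the 50 members with CCAAT and 0.38 over the 9 without it, all of them H4 genes. It was 0.51 over the 33 members with TATAAA and 0.46 over the 26 without, and 0.52 over the 12 with ATTTGCAT and 0.46 over the 47 without. Members with AAACACA, 8 of them, had a lower median than the 51 without, 0.43 against 0.48. Within H2A the 6 genes with ATTTGCAT had a lower median than the 9 without, 0.52 against 0.59. Within H2B the order was the other way, 0.51 over the 6 genes with ATTTGCAT against 0.44 over the 10 without. The windows of the H4 genes with the largest and smallest log2 fold change in edgeR are shown first, then those of Hist1h2af and Hist1h2bf, the H2A and H2B genes with the largest differences, with any match to the 4 motifs on either strand in capitals. Their places are chr6:136804382-136804681 on the minus strand for Hist4h4, chr13:21811496-21811795 on the plus strand for Hist1h4m, chr13:23533625-23533924 on the plus strand for Hist1h2af and chr13:23574158-23574457 on the minus strand for Hist1h2bf.
Hist4h4: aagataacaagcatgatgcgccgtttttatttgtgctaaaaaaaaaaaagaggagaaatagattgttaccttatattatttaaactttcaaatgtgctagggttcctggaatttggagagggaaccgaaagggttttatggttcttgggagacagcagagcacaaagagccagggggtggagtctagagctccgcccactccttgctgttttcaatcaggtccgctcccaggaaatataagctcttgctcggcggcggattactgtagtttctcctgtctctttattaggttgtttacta
Hist1h4m: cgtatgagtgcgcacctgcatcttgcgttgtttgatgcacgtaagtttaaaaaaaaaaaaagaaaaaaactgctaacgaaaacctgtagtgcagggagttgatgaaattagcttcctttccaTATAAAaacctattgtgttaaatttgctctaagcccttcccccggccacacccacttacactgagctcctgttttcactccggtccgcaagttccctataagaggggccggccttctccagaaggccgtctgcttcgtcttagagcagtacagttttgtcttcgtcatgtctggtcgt
Hist1h2af: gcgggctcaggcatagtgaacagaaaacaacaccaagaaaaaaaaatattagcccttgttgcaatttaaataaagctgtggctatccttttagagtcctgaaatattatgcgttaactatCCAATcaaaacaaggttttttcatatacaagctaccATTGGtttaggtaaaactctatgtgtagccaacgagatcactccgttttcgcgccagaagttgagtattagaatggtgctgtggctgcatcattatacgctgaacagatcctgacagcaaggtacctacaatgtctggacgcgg
Hist1h2bf: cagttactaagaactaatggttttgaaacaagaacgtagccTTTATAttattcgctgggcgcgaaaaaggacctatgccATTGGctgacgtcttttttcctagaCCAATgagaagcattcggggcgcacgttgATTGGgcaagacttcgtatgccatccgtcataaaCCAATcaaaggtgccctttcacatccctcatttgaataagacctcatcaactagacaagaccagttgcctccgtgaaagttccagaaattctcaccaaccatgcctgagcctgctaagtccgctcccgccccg
The Hist4h4 window holds none of the 4 motifs and that of Hist1h4m 1 TATAAA. That of Hist1h2af holds 2 copies of CCAAT and no TATAAA, and that of Hist1h2bf 4 copies of CCAAT and 1 TATAAA.

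The 3′ stem-loop was looked for in the GENCODE vM39 transcripts of the members, all 68 of which matched a gene there. The search took a stem of 6 bases beginning with GG, a loop of 4 bases and the exact complement of the stem, in the form known for histone mRNAs. It was in a transcript of 45 members, in 6 forms, and in 0.0932% of 180302 other protein-coding transcripts, none of which had it within 100 bases of the end. The other 23 members include Hist1h2af, whose annotated transcript is 399 bases long, and Hist2h2be, whose annotated transcript is 2620 bases long. Several others are short, such as Hist1h2bl at 381 bases and Hist1h4k at 312. A stem-loop past the annotated end could not be found, so these members are not shown to lack one. The most common form was shared by 27 members of the H1, H2A, H2B and H3 subtypes and by no H4 gene, and 7 H4 genes shared another. The stem-loop is shown in capitals with up to 5 bases on either side for 1 gene of each other subtype and for the same 2 H4 genes.
Hist1h1c: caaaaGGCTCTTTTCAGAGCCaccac
Hist2h2ac: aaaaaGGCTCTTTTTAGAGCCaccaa
Hist1h2bf: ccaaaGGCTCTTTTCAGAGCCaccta
Hist1h3c: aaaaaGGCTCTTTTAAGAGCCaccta
Hist1h4m: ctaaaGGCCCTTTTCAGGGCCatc
Hist4h4: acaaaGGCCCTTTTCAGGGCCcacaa
The H4 stem-loops of Hist1h4m and Hist4h4 are the same 16 bases, but their annotated transcripts differ in what follows. The Hist1h4m transcript ends 3 bases after the stem-loop, whereas the Hist4h4 transcript, 2863 bases long, runs 2445 bases past it. Hist1h2bf has 29 bases after the stem-loop and Hist1h1c 840.

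Because the libraries were selected for poly(A), annotated transcripts that run past the stem-loop were set beside those that stop at it. The median log2 fold change was 0.41 over the 24 members with a transcript that runs more than 100 bases past the stem-loop, and 0.45 over the 21 members without one. It was 0.53 over the 23 members in which no stem-loop was found, which are not shown to lack one. Hist4h4 belongs to the first set. Which 3′ end the counted reads came from was not analysed here.

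Other RNAs that lack a poly(A) tail were read for their share of each library, which does not separate carry-over from their level in the cells. Small nuclear, nucleolar, ribosomal and related RNAs, 137 genes in all, took between 8.62% and 18.2% of counts in KO, with a median of 11.3%. In WT they took 9.72%, 10.9%, 19.1%, 11.9% and 11.0%. KO replicate 6 and WT replicate 3 were the high tumors, and the difference between the means of -0.566 percentage points (KO minus WT) did not pass an exact two-sided permutation test (p = 0.723). Rn7s2, a 7SL RNA gene, was the most abundant of them, and Rn18s-rs5, an 18S ribosomal RNA gene, ranged from 2633 CPM in KO replicate 3 to 87205 CPM in WT replicate 3. WT replicate 3 was high through that gene alone. Without it the share lay between 8.29% and 15.2% in KO and at 9.32%, 9.05%, 10.3%, 10.1% and 9.70% in WT, so the means of 10.9% in KO and 9.71% in WT stood in the other order, a difference that was not tested. KO replicate 1, with the lowest histone sum of the KO tumors, also had the lowest share of these RNAs. WT replicate 1 had the lowest histone sum of the WT tumors and, with Rn18s-rs5 counted, their lowest share, 9.72%. WT replicate 2, with the highest histone sum of the WT tumors, had a share of 10.9% on that scale. Without Rn18s-rs5 its share was the lowest of WT, 9.05%. KO replicate 6, with the highest share of the KO tumors, had a histone sum of 5350 CPM, between those of KO replicates 2 and 4.

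Histone calls were lost when the high tumor of each genotype in this share was left out. In that edgeR fit of 5 KO and 4 WT tumors, added after the data were seen and picked on the share that includes Rn18s-rs5, 0 members passed an adjusted p of 0.05 and 21 were higher at an unadjusted p under 0.05, as were 6.46% of all genes in that fit. Hist4h4 had a log2 fold change of 1.35 (edgeR adjusted p = 0.0676) and Hist1h2af 0.78 (edgeR adjusted p = 0.091), while calls higher in KO over all genes went from 117 to 25. All 68 log2 fold changes stayed positive, with a median of 0.47. The part of carried-over RNA in the histone differences was not tested further.

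Genes that make and process histone mRNA were read as a list of 20. None passed the adjusted threshold in edgeR in either direction, 3 were higher and 2 lower at an unadjusted p under 0.05, where 8.19% of all genes were higher and 10.5% lower, and the median log2 fold change was 0.10. Slbp, which encodes the stem-loop binding protein, was at 18.3 ± 2.91 CPM in KO (SD, n = 6) and 17.7 ± 1.67 in WT (SD, n = 5), with a log2 fold change of 0.05 (edgeR adjusted p = 0.856). Npat, the coactivator gene, was at 37.1 ± 1.32 and 32.4 ± 3.08 CPM, with a log2 fold change of 0.19 (edgeR adjusted p = 0.194). Casp8ap2, which encodes FLASH, a factor of histone pre-mRNA cleavage, had 0.29 (edgeR adjusted p = 0.295), and WT replicate 2 at 42.6 CPM lay above the other WT tumors, the next being at 31.1 CPM. In the summed CPM of the list, the groups overlapped, at 618 ± 18.1 in KO and 622 ± 32.8 in WT.

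Variant histones are encoded outside the replication-dependent clusters, many by polyadenylated mRNAs. None of the 11 genes in the list passed the adjusted threshold in edgeR, 6 were higher and 0 lower at an unadjusted p under 0.05 (8.19% and 10.5% of all genes), 9 log2 fold changes were positive, and the median was 0.34. H2afz, the H2A.Z gene, was at 37.4 ± 6.36 CPM in KO (SD, n = 6) and 26.4 ± 2.49 in WT (SD, n = 5), with a log2 fold change of 0.49 (edgeR adjusted p = 0.0702). Both H3.3 genes encode the same protein, but H3f3a had a log2 fold change of 0.34 (edgeR adjusted p = 0.081) and H3f3b 0.0097 (edgeR adjusted p = 0.981), a value that turned negative in 7 of 23 other settings. Other tools did call some of these: DESeq2 called H2afz (adjusted p = 0.0111, within 0.0111 to 0.166 over 23 settings) and H3f3a (adjusted p = 0.0208, within 0.0208 to 0.251). Of 20 histone chaperone genes, which escort histones to DNA, none passed in edgeR, 5 were higher and 2 lower at an unadjusted p under 0.05 (8.19% and 10.5% of all genes), and the median log2 fold change was 0.19.

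Genes of DNA replication and mitosis were read in the same tumors. Of 34 replication genes, 32 were tested, 30 had a positive log2 fold change, and the median was 0.31. At an unadjusted p under 0.05, 11 were higher and 0 lower (8.19% and 10.5% of all genes), and 1 passed in edgeR, against 0.608% of all genes. That gene was Mcm6, which encodes a subunit of the replicative helicase. Its CPM was between 25.2 and 33.1 in KO and 14.7, 19.8, 19.8, 22.8 and 17.4 in WT. The groups were apart, and Mcm6 rose by 0.65 on the log2 scale (SE 0.13, edgeR adjusted p = 0.022). Without KO replicate 3 or 4 the adjusted p of Mcm6 was 0.0566 and 0.0527, within 0.0001 to 0.0642 over 23 settings. Pcna, the sliding clamp gene, was at 51.7 ± 5.47 CPM in KO (SD, n = 6) and 36.1 ± 5.88 in WT (SD, n = 5), with a log2 fold change of 0.52 (edgeR adjusted p = 0.0584). It passed in 7 of 23 other settings, among them DESeq2 and the fits without KO replicate 1 and without WT replicate 2, with an adjusted p from 0.0051 to 0.136.

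All 20 mitosis genes had a positive log2 fold change, with a median of 0.43, none passed in edgeR, and 11 were higher and 0 lower at an unadjusted p under 0.05 (8.19% and 10.5% of all genes). Mki67, the Ki-67 gene, was at 449 ± 67.5 CPM in KO (SD, n = 6) and 320 ± 52.9 in WT (SD, n = 5), with a log2 fold change of 0.49 (edgeR adjusted p = 0.101). It passed in 3 of 23 other settings, DESeq2, limma-voom with sample quality weights and edgeR without KO replicate 1, with an adjusted p from 0.0228 to 0.239. The summed CPM of the mitosis list was 605, 875, 919, 865, 878 and 820 in KO replicates 1 to 6. It was 452, 730, 557, 689 and 611 in WT replicates 1 to 5. KO replicate 1 was the lowest KO tumor and WT replicate 2 the highest WT tumor here, as for the histone sum. Mki67 was the most abundant gene of the mitosis list, whose mean sum was 827 CPM in KO and 608 in WT. The replication list summed to 480 CPM in KO replicate 1, to between 525 and 639 CPM in the other KO tumors, to 570 CPM in WT replicate 2 and to between 370 and 466 CPM in the other WT tumors. KO replicate 1 was above 4 WT tumors in the replication sum and below 4 in the histone sum. In the mitosis sum it was below WT replicates 2, 4 and 5. Correlation between these sums and the part of cell proliferation in the histone differences were not tested.

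Markers of the cell types in a mammary tumor were read in the same libraries. Luminal epithelial markers, 9 of 9 tested, summed to 1674 ± 391 CPM in KO (SD, n = 6) and 1721 ± 256 in WT (SD, n = 5), with Cdh1 as the most abundant, as the tissue label would have it. KO replicate 1 had the lowest luminal sum of all 11 tumors, 1135 CPM, and WT replicate 2 the lowest of WT, 1407 CPM. Sums in KO and WT were 319 ± 104 and 376 ± 276 CPM for 7 basal markers (led by Oxtr), 683 ± 193 and 565 ± 162 for 7 fibroblast markers (Col1a1), 53.1 ± 15.4 and 62.2 ± 12.4 for 5 endothelial markers (Cdh5) and 242 ± 67.2 and 207 ± 61.9 for 7 macrophage markers (C1qb). T cell markers, 3 of 5 tested, summed to 4.72 ± 1.42 and 5.06 ± 2.38 CPM (Cd8a), 5 adipocyte markers to 10.7 ± 11.3 and 17.2 ± 22.6 CPM (Fabp4), and the 1 B cell marker analysed of 4, Cd79b, to 0.371 ± 0.242 and 0.328 ± 0.14 CPM. No marker analysed was at 0 in all tumors. None of the markers tested passed the adjusted threshold in edgeR, and at an unadjusted p under 0.05 none was higher and 1, the basal marker Krt14, was lower (8.19% and 10.5% of all genes). Krt14 was at 276.6 CPM in WT replicate 2 and between 4.64 and 47.6 CPM in the other WT tumors, so its log2 fold change of -2.42 (edgeR adjusted p = 0.160) is carried by the tumor that also stood apart for histones. Of the 7 basal markers, 3 had a positive and 4 a negative log2 fold change. Unlike Krt14, Oxtr and Acta2 were at their lowest of all 11 tumors in WT replicate 2, at 17.5 and 13.4 CPM. The part of cell type makeup in the histone differences was not tested.

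Counts that were not whole were no more common among histone genes than elsewhere, at 15.8% of their values against 18.9% of all values in the table. Of the 68 members, 13 had such a count in at least 1 tumor and 9 in all 11. Those same 9 were the members that overlapped another annotated gene in the table, in some cases on the opposite strand. How the counting treated strand and reads that match more than 1 gene was not given in the sources used here. Hist4h4 and Hist1h2af were among the 55 members with whole counts in all 11 tumors and overlapped no other gene. Whole counts do not show that the reads matched 1 gene only.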

How the data were processed

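RNA from 11 tumors, 6 KO and 5 WT, was sequenced in paired-end poly(A) libraries, and the authors aligned reads to GRCm38 with Bowtie2 after FastQC and made gene tables in Partek Flow. The estimated counts, as deposited by the authors, are not normalized and not all whole. The CPM values were deposited by the authors and equal those counts scaled to 1000000 per tumor. The counting method and annotation version were not given in the sources used here.

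After rounding, the counts went into edgeR 4.0.16 (quasi-likelihood, TMM factors, filterByExpr, Benjamini-Hochberg over 19232 genes), KO against WT, under R 4.3.3. Other settings used DESeq2 1.42.0, limma 3.58.1 (voom with and without sample weights, and log2 of CPM plus 1 or 0.1), other scaling factors, filters and gene sets, a block for replicate number and the omission of each tumor. Total counts and the share of RNAs without a poly(A) tail were compared by exact permutation. Medians, sums, lists and all other shares were not tested. The edgeR fit and the permutation test were also tested on simulated data. A value of 3 counts equals between 0.213 and 0.285 CPM, and that floor covers counting error only.

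Members were all genes with the name pattern, and Hist1h2aa was not analysed here. Genes named one by one were Pcbp1, members past the threshold, in each subtype the 2 with the highest CPM per kilobase of gene span and the largest and smallest log2 fold change, the Hist2 to Hist4 genes by range, testis-type members and stated genes of the lists. Other genes named, such as Hist1h4n, those of head-to-head pairs, H2afj, Mgp, Krt14, Rn18s-rs5 and the added DESeq2 calls, were picked after their values were seen. Lists covered histone mRNA transcription and processing (20 genes), variant histones (11), chaperones (20), DNA replication (34), mitosis (20), other RNAs without a poly(A) tail (137) and markers of 8 cell types. The members and lists were chosen with earlier results of these data known.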

Additional observations from a re-analysis of the deposited data

Results flagged for a closer look

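Within each genotype, single values far from the others were looked for in 114 groups of values with Dixon's ratio, a rule that marks about 1 in 20 groups by chance, or 5.7 here. It marked 16. WT replicate 2 was high for Hist1h1a (127 CPM, next 76.0), Hist1h1c (320.1, next 254.9), Hist1h1t (1.42, next 0.364), Hist1h3d (86.0, next 52.0), Hist1h3i (82.1, next 48.7), Hist1h4h (212.5, next 167.1), Hist1h4m (153.6, next 85.6) and Casp8ap2 (42.6, next 31.1). KO replicate 1 was low for Hist2h2bb (45.8 CPM, next 87.8), the Hist2 sum (434 CPM, next 706), Mki67 (318 CPM, next 457) and the mitosis sum with Mki67 in it (605 CPM, next 820).

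Of RNAs without a poly(A) tail, KO replicate 6 had 181846 CPM (next 120134) and WT replicate 3 had 190576 CPM (next 119285). The basal marker sum was low in KO replicate 2 (123 CPM, next 301) and the adipocyte marker sum high in WT replicate 3 (57.3 CPM, next 10.5). All 11 tumors were kept except where a value is given as without a named tumor, among them the fit without KO replicate 6 and WT replicate 3. What set these tumors apart was not tested.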

How the results depend on the processing

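The count of histone genes higher in KO at an adjusted p under 0.05, 2 in edgeR, was 7 in DESeq2, 47 in limma-voom with sample quality weights and 3 with a block for replicate number, and ranged from 1 to 5 when 1 tumor was left out. Without KO replicate 6 and WT replicate 3, a setting added after the data were seen, it was 0. The other settings kept 2, among them limma-voom without weights, also added later. With the block, 48 of all 19232 genes tested were called higher, against 117 in the edgeR fit without it. Whether the numbers behind the block pair tumors was not given in the sources used here. Correlations of same-number tumors were 0.13, 0.09, -0.08, -0.14 and 0.29. Those of other pairs ran from -0.22 to 0.17, so these values do not settle it. In every setting 0 histone genes were lower and all log2 fold changes of the family were positive. The family median ranged from 0.36 to 0.63.

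Signs turned for values near 0. H3f3b was -0.014 with limma on log2(CPM + 1), -0.014 on log2(CPM + 0.1) and -0.016 in limma-voom without weights, and ranged from -0.074 to 0.11 when 1 tumor was left out. Slbp ranged from -0.0082 to 0.11 and the difference in the share of other RNAs without a poly(A) tail from -1.81 to 1.07 percentage points when 1 tumor was left out.

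Limits: the design holds 6 and 5 tumors of unstated litters, and total estimated counts differed between genotypes. How reads that match more than 1 gene were counted was not given, and histone mRNA was read in libraries selected for poly(A).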
